A study of Mus musculus with 12 samples.

Results

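Astrocytes organize the synapses of neighbouring neurons through proteins that they release or expose at their surface, and 10 genes of this kind were followed across the knockdown (KD) of the long noncoding RNA *Neuid* in mouse hippocampal cultures. The members were listed by name for this function, with earlier results of these data known. They are Sparcl1 (encoding hevin), Sparc, Thbs1, Thbs2, Thbs4, Gpc4, Gpc5, Gpc6, Chrdl1 and Megf10, which are 10 of the 55471 genes in the count table. RNA-seq was performed on primary hippocampal neurons of WT genotype that were treated at DIV 7 (days in vitro) and collected at DIV 10. The 6 control libraries came from cultures given a negative control gapmer, and the 6 *Neuid* KD libraries from cultures given a gapmer against *Neuid*. Gapmers are antisense oligonucleotides with locked nucleic acid ends that direct RNase H to their target RNA, and per the study's methods they were delivered in lipid nanoparticles to cultures prepared from CD1 mouse embryos. Every group carried the same wild-type genotype and received a gapmer, and a single gapmer sequence stood for each arm. The labels do not say whether the libraries of a group came from separate cultures, so the p-values measure the spread between these libraries, which may be technical.

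Hevin bridges presynaptic neurexins and postsynaptic neuroligins and promotes excitatory synapse formation, whereas the related matricellular protein SPARC antagonizes hevin. Thrombospondins are secreted multimers that induce synapses through the calcium channel subunit alpha2delta-1. Glypicans are heparan sulfate proteoglycans held at the membrane by a lipid anchor and shed from it, and those of astrocytes bring AMPA receptors to young synapses. Chordin-like 1, encoded by Chrdl1, binds BMPs and is known to favour the entry of AMPA receptors that contain GluA2. MEGF10 is a phagocytic receptor through which astrocytes take up synapses, and it is the single member of the set that is a transmembrane receptor and not a released factor.

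*Neuid* itself (Gm10419) was at 26.0 to 31.0 CPM in control and at 6.32 to 9.55 CPM in *Neuid* KD, where CPM stands for the count scaled to library size after TMM normalization, and its level in *Neuid* KD was 28.5% of control (log2 fold change -1.81, SE 0.0845). Gm42517 overlaps *Neuid* on the opposite strand and had means of 17.6 CPM (control) and 19.8 CPM (*Neuid* KD), and the strand setting of the counting was not given in the sources used here. The control libraries held 18002585 to 30914714 counted reads and the *Neuid* KD libraries 11152556 to 30573480. The libraries stood apart in background, measured as the summed CPM of 2014 chemosensory receptor genes and pseudogenes, which was 26.7 to 667 among control libraries and 27.1 to 617 among *Neuid* KD libraries. This background was at least 100 CPM in 7 libraries, 4 control and 3 *Neuid* KD, and under 100 CPM in the other 5. The 12 neuronal markers summed to 7274 to 8478 CPM in control and to 7195 to 8484 CPM in *Neuid* KD. Markers of homeostatic astrocytes were present beside them in cultures labelled as neurons, at 1833 to 2317 CPM in control and at 3484 to 4190 CPM in *Neuid* KD. Of the 19 tested markers of that list, 15 were upregulated, beside 2.44% of all tested genes. No gene of the marker lists was without reads. In bulk RNA, fewer cells of a type and less RNA per cell cannot be told apart, and the part of this astrocyte marker shift in the values below was not tested.

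All 10 members passed the filter on low counts and were tested by edgeR (quasi-likelihood F-test), and p-values were adjusted over the 19578 tested genes by the Benjamini-Hochberg method. A gene is called upregulated or downregulated where the adjusted p is under 0.05 and the log2 fold change lies above 0.5 or below -0.5. The members moved in both directions. Gpc5, Gpc6 and Megf10 were upregulated, beside 2.44% of all tested genes, and Chrdl1 and Thbs2 were downregulated, beside 0.792% of all tested genes, 5 members in all where 3.23% of the tested genes were called in either direction. Sparcl1 and Gpc4 were higher and Sparc was lower at an adjusted p under 0.05 with smaller fold changes, so that without the fold threshold 5 members were higher (6.31% of all tested genes) and 3 were lower (2.42%), together 8 of 10 beside 8.72% in either direction. Thbs1 and Thbs4 did not pass the test. In 7 of the 10 members the libraries of the groups did not overlap, against 5.7% of all tested genes. The median log2 fold change was 0.19 over the members and -0.03 over all tested genes.

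**Figure D1:**
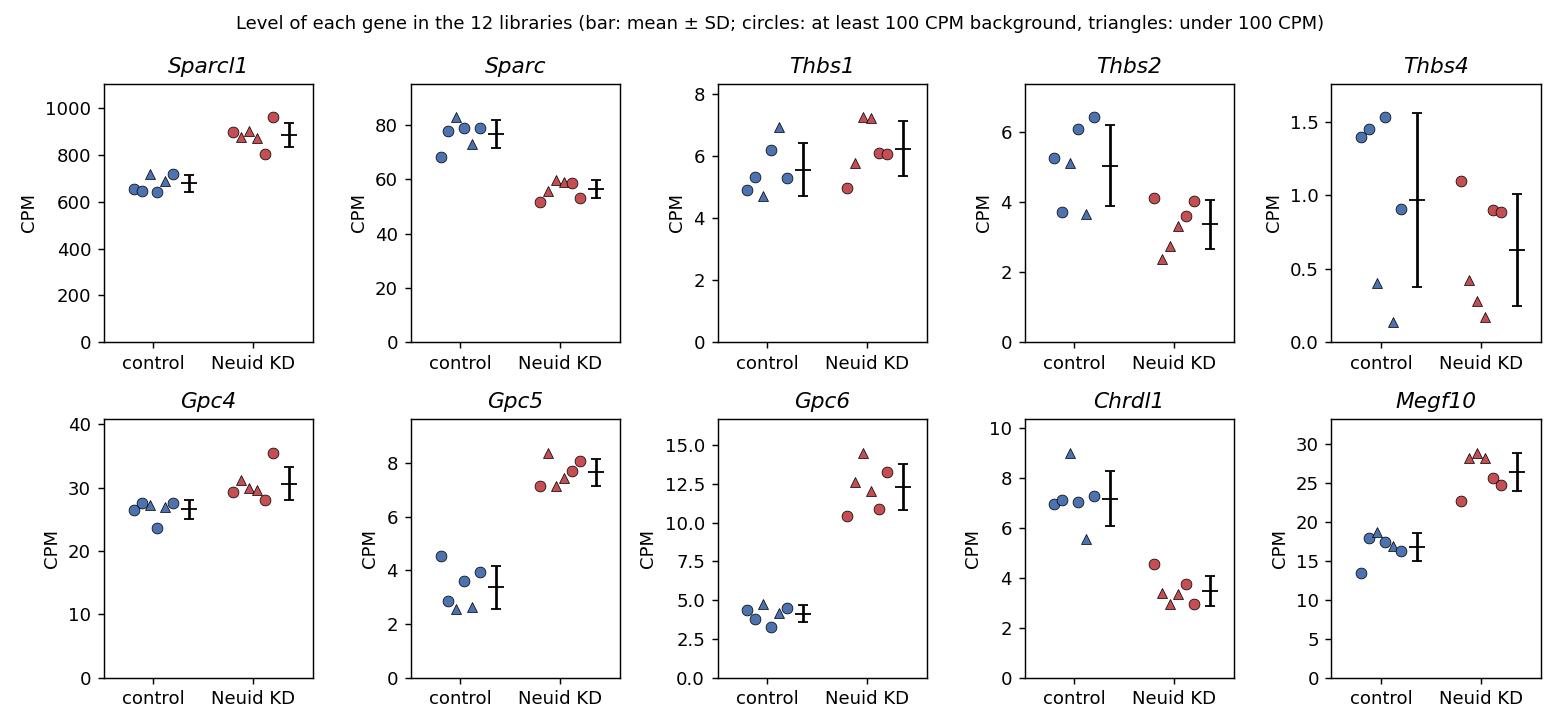
CPM of each of the 10 members in the 6 control and 6 *Neuid* KD libraries, with a circle for each library with at least 100 CPM of background, a triangle for each under it, and a bar for the mean and SD of each group. The points of the groups do not overlap for Sparcl1, Sparc, Gpc4, Gpc5, Gpc6, Chrdl1 and Megf10, and they overlap for Thbs1, Thbs2 and Thbs4.

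**Figure D2:**
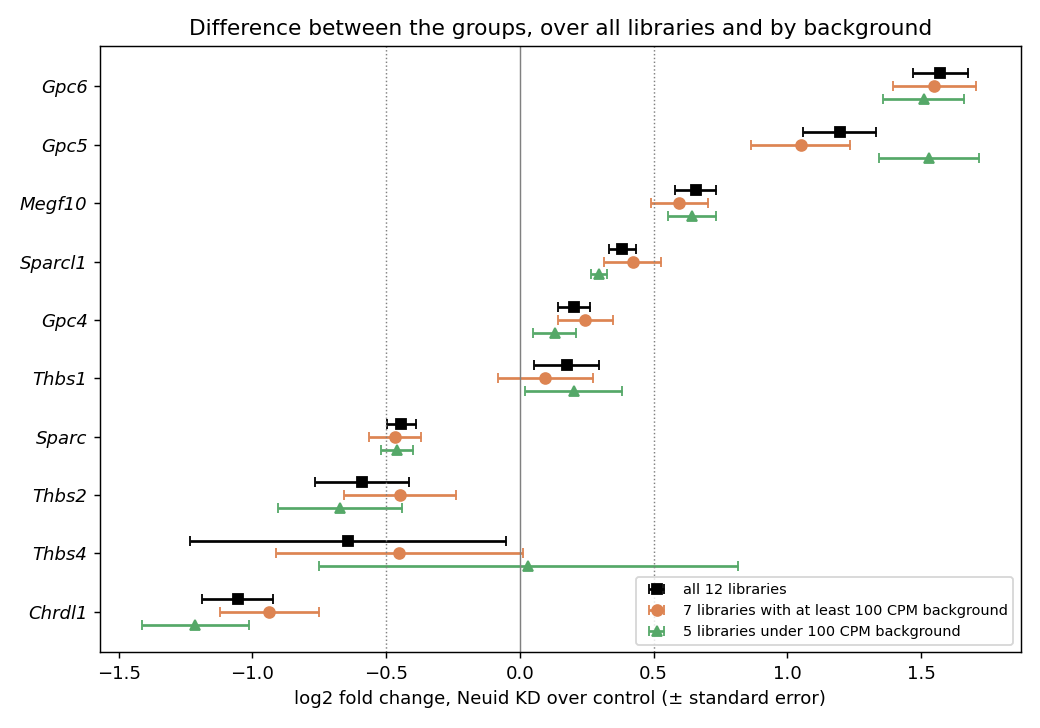
Log2 fold change of each member, *Neuid* KD over control, with its standard error, over all 12 libraries and within the 7 libraries with at least 100 CPM of background and the 5 under it. Over all libraries Gpc6 has the highest value of the members, at 1.57, and Chrdl1 the lowest, at -1.06.

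The promoters of members that moved in opposite directions are shown for Gpc5, which was upregulated, and Thbs2, which was downregulated, beside Thbs4, which did not pass the test. The 250 bases before the annotated start were taken from RefSeq on GRCm38.p6, in which 5 of the 10 members matched an entry. The windows are chr14:115091965-115092214 on the plus strand for Gpc5, chr17:14694263-14694512 on the minus strand for Thbs2 and chr13:92794819-92795068 on the minus strand for Thbs4. The windows of Sparc and Gpc4 lay mostly or wholly in annotated exons of those genes and are not shown. Capitals mark matches on either strand to the NFI motif TTGGC, the TEAD motif GGAATG, the STAT motif TTCNNNGAA and the GC box GGGCGG, and neighbouring matches may share a base.
Gpc5: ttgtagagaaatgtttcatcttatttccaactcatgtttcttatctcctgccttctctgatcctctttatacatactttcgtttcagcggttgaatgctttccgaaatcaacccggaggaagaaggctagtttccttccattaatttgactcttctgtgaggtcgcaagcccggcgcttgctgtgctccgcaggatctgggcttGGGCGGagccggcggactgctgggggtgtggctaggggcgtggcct
Thbs2: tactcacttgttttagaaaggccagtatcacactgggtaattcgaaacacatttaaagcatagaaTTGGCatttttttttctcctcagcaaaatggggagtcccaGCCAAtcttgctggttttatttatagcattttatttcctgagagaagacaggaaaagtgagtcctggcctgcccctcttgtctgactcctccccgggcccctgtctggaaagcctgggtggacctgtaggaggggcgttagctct
Thbs4: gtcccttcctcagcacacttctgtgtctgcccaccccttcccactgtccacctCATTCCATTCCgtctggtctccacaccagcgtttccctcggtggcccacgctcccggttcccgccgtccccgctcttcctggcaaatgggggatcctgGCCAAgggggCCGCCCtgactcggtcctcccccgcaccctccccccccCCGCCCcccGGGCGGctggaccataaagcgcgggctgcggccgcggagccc
The Gpc5 window held 1 GC box and no match to the other motifs. The Thbs2 window held 2 NFI motifs, and the Thbs4 window held 1 NFI motif, 2 TEAD motifs and 3 GC boxes. The E-box CANNTG, which is not in capitals, occurred once in the Thbs2 window and once in the Thbs4 window. Of 32851 RefSeq promoter windows of the same length, 41.5% held an NFI motif, 12.6% a TEAD motif, 7.02% a STAT motif, 66.2% an E-box and 32.7% a GC box. A match describes letters only, and binding was not measured.

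Hevin and SPARC, the agonist and antagonist pair, moved apart. Sparcl1 (ENSMUSG00000029309, chr5:104079111-104113733 on the minus strand of GRCm38) had the highest level of the members in every library. It ran from 639 CPM to 720 CPM in control libraries (median 673 CPM) and from 803 CPM to 959.6 CPM in *Neuid* KD libraries (median 886 CPM). The lowest *Neuid* KD value lay above the highest control value. The mean rose from 679 ± 36.1 CPM to 885 ± 50.8 CPM (SD, n = 6 each), a log2 fold change of 0.38 (SE 0.0501, edgeR adjusted p = 4.34e-05), which is below the fold threshold. Sparc (chr11:55394500-55423183, minus strand) went the other way. It ran from 68.3 CPM to 82.8 CPM in control libraries (median 78.4 CPM) and from 51.8 CPM to 59.8 CPM in *Neuid* KD libraries (median 57.2 CPM), again without overlap. Its mean fell from 76.6 ± 5.11 CPM to 56.3 ± 3.35 CPM (SD, n = 6 each), a log2 fold change of -0.44 (SE 0.0553, edgeR adjusted p = 2.56e-05).

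Scaled to exon length, Sparcl1 stood at 11.5 ± 0.782 times the level of Sparc in control (SD, n = 6) and at 20.4 ± 2.12 times in *Neuid* KD (SD, n = 6). This ratio was taken within each library, where both genes share the same library size. The control values lay at 10.5 to 12.4 and the *Neuid* KD values at 17.6 to 23.3, so the groups did not overlap. With the longest transcript as the length, an alternative chosen after seeing the data, the ratio was 7.40 ± 0.505 in control and 13.2 ± 1.37 in *Neuid* KD (SD, n = 6 each), also without overlap. Both genes kept their direction in the libraries with at least 100 CPM of background (log2 fold changes of 0.42 for Sparcl1 and -0.47 for Sparc) and in those under it (0.30 and -0.46). When offsets for GC content and gene length were added to the fit, neither passed the test (edgeR adjusted p = 0.548 for Sparcl1 and 0.772 for Sparc). Without the filter on low counts the adjusted p of Sparcl1 was 0.121. With upper-quartile scaling Sparc passed the fold threshold too and was downregulated (-0.504 on the log2 scale, edgeR adjusted p = 4.23e-07). SPARC is also made by fibroblasts and mural cells, whose 18 markers summed to 125 to 164 CPM in control and to 99.2 to 123 CPM in *Neuid* KD, with 1 of the 16 tested downregulated, and their part in the result was not tested.

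Among 12 relatives and partners of hevin and SPARC, all tested, 2 were upregulated and 0 downregulated by the edgeR test, and the median log2 fold change was 0.03. Over all tested genes 2.44% were upregulated and 0.792% downregulated, and these shares stand beside each list below too. Smoc1, a secreted calcium-binding relative of SPARC, rose from 8.27 ± 0.896 CPM to 19.1 ± 0.769 CPM (SD, n = 6 each), a log2 fold change of 1.21. Nrxn3, which encodes a presynaptic neurexin, rose from 47.2 ± 0.498 CPM to 71.6 ± 8.40 CPM (SD, n = 6 each), a log2 fold change of 0.61. At an adjusted p under 0.05 alone, 4 of the 12 were higher and none was lower, beside 6.31% and 2.42% of all tested genes.

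The thrombospondin members were low, and 1 of the 3 passed the test. Thbs1 (chr2:118111876-118127133, plus strand) ran from 4.70 CPM to 6.94 CPM in control libraries (median 5.31 CPM) and from 4.97 CPM to 7.25 CPM in *Neuid* KD libraries (median 6.09 CPM). The groups overlapped widely. The log2 fold change of Thbs1 was 0.17 (SE 0.121, edgeR adjusted p = 0.536), and its approximate 95% interval reached from -0.06 to 0.41. Thbs2 (chr17:14665500-14694235, minus strand) ran from 3.65 CPM to 6.42 CPM in control libraries (median 5.18 CPM) and from 2.37 CPM to 4.13 CPM in *Neuid* KD libraries (median 3.47 CPM). Of the 6 *Neuid* KD libraries, 4 were below the lowest control library. The mean of Thbs2 fell from 5.04 ± 1.16 CPM to 3.37 ± 0.699 CPM (SD, n = 6 each), a log2 fold change of -0.59 (SE 0.176, edgeR adjusted p = 0.0462). This call was close to the threshold. Over the fits that left out a library, the edgeR adjusted p ran from 0.0203 to 0.127 and passed in 4 of 12. It was 0.0771 without control replicate 1, 0.0776 without replicate 3, 0.113 without replicate 4 and 0.127 without replicate 6 of the same group. It was 0.111 without *Neuid* KD replicate 2, 0.112 without replicate 3, 0.0924 without replicate 4 and 0.0585 without replicate 5 of that group.

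Thbs4 (chr13:92751590-92794818, minus strand) rested on 3 to 34 reads per library. It ran from 0.139 CPM to 1.53 CPM in control and from 0.175 CPM to 1.09 CPM in *Neuid* KD. In both groups it was higher in every library of the higher background than in any of the lower. In the libraries with at least 100 CPM of background it was at 0.904 to 1.53 CPM in control and at 0.890 to 1.09 CPM in *Neuid* KD, and in those under 100 CPM it was at 0.139 to 0.400 CPM and at 0.175 to 0.427 CPM. The log2 fold change over all libraries was -0.64 (SE 0.592, edgeR adjusted p = 0.690), and it was -0.45 within the first set and 0.031 within the second. A difference in Thbs4 between the groups was not detectable at this depth.

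Scaled to exon length, the thrombospondin family summed to 5.07 ± 0.310 CPM per kb in control and to 4.14 ± 0.439 CPM per kb in *Neuid* KD (SD, n = 6 each). Thbs3, named after its values were seen, made up the largest share, at 58.8% in control and 57.1% in *Neuid* KD, and its level was lower in *Neuid* KD (log2 fold change -0.34, edgeR adjusted p = 0.0137). The share of Thbs1 was 18.1% in control and 25.1% in *Neuid* KD, and that of Thbs2 was 14.2% and 11.5%. Of 13 relatives and receptors of thrombospondins, 11 were tested, of which 1 was upregulated and 0 were downregulated, with a median log2 fold change of 0.23. The upregulated gene was Cacna2d3, an alpha2delta subunit of voltage-gated calcium channels (log2 fold change 0.53, SE 0.0755, edgeR adjusted p = 1.11e-04). Cacna2d1, the alpha2delta-1 receptor through which thrombospondins induce synapses, was named after its values were seen, and it was higher below the fold threshold (log2 fold change 0.43, SE 0.0855, edgeR adjusted p = 0.00279).

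The glypican members were higher in *Neuid* KD to very different degrees. Gpc6 (chr14:116925315-117976544, plus strand), which brings AMPA receptors to synapses, ran from 3.25 CPM to 4.74 CPM in control, with a median of 4.25 CPM, and from 10.4 CPM to 14.5 CPM in *Neuid* KD, with a median of 12.3 CPM. All 6 *Neuid* KD libraries lay far above the control libraries. Its mean rose from 4.13 ± 0.539 CPM to 12.3 ± 1.502 CPM (SD, n = 6 each), which is 2.97-fold (log2 fold change 1.57, SE 0.103, edgeR adjusted p = 8.79e-09). Gpc5 (chr14:115092215-116525179, plus strand), the neighbouring glypican on the same chromosome, ran from 2.57 CPM to 4.54 CPM in control, with a median of 3.24 CPM, and from 7.16 CPM to 8.38 CPM in *Neuid* KD, with a median of 7.58 CPM. The groups did not overlap. Its mean rose from 3.36 ± 0.799 CPM to 7.65 ± 0.496 CPM (SD, n = 6 each), a log2 fold change of 1.196 (SE 0.136, edgeR adjusted p = 9.26e-06). Within the libraries with at least 100 CPM of background the log2 fold changes were 1.55 for Gpc6 and 1.05 for Gpc5, and within the others 1.51 and 1.53.

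Gpc4 (chrX:52053021-52165252, minus strand), which also acts on AMPA receptors and was the highest glypican among the members, moved least of the 3. It ran from 23.7 CPM to 27.6 CPM in control libraries (median 27.1 CPM) and from 28.1 CPM to 35.5 CPM in *Neuid* KD libraries (median 29.8 CPM). The groups did not overlap, but the gap between them was narrow. The mean rose from 26.6 ± 1.47 CPM to 30.6 ± 2.61 CPM (SD, n = 6 each), a log2 fold change of 0.20 (SE 0.06, edgeR adjusted p = 0.0433). It did not pass in any of the 12 fits that left out a library, with an edgeR adjusted p from 0.0517 to 0.189, and it passed in 8 of all 26 alternatives.

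Within libraries, the length-scaled level of Gpc6 was 0.0640 ± 0.00618 times that of Gpc4 in control and 0.166 ± 0.0186 times in *Neuid* KD (SD, n = 6 each), without overlap. For Gpc5 the same ratio was 0.0757 ± 0.0195 in control and 0.149 ± 0.0108 in *Neuid* KD (SD, n = 6 each), also without overlap. With the longest transcript as the length, these ratios were 0.0992 and 0.257 for Gpc6 and 0.119 and 0.234 for Gpc5, in control and *Neuid* KD, and the groups again did not overlap. The whole family of 6 glypicans summed to 35.2 ± 1.40 CPM per kb in control and to 41.1 ± 1.66 CPM per kb in *Neuid* KD (SD, n = 6 each). Gpc1, also named after its values were seen, held the largest share, 57.2% in control and 55.7% in *Neuid* KD, followed by Gpc4 with 28.5% and 28.1%. The share of Gpc6 was 1.83% in control and 4.65% in *Neuid* KD, and that of Gpc5 was 2.16% and 4.19%. Gpc3, named after its values were seen, went the other way, with a share of 9.30% in control and 6.50% in *Neuid* KD, without overlap. Its level did not pass the test (log2 fold change -0.29, edgeR adjusted p = 0.0912). Among 15 relatives and partners of glypicans, all tested, 0 were upregulated and 0 downregulated, with a median log2 fold change of 0.08. At an adjusted p under 0.05 alone, 4 were higher and 0 lower, beside 6.31% and 2.42% of all tested genes. Among the 4 were Gpr158, a synaptic receptor for glypicans (log2 fold change 0.29, edgeR adjusted p = 0.00921), and Nptx1, a secreted pentraxin that clusters AMPA receptors (log2 fold change 0.30, edgeR adjusted p = 0.0176).

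**Figure D3:**
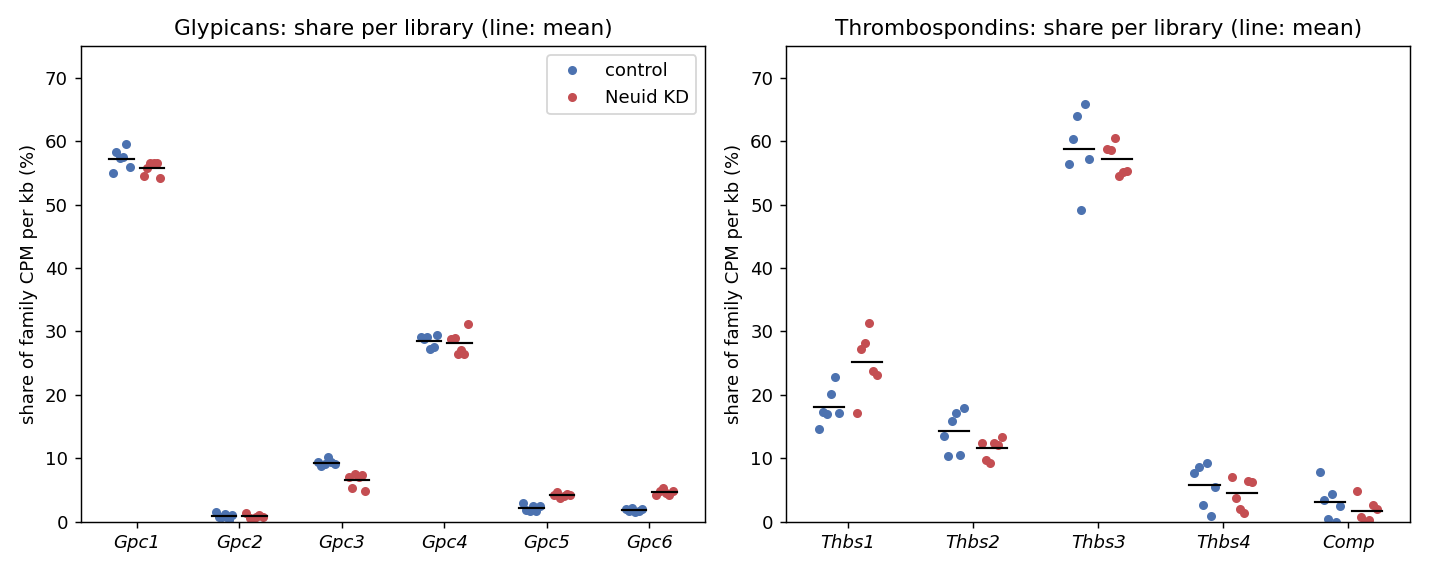
Share of each gene in the summed length-scaled level (CPM per kb of exon) of the glypican and thrombospondin families, in percent, with a point for each control and *Neuid* KD library and a line for the mean. Gpc1 and Gpc4 hold most of the glypican sum in both groups, while the shares of Gpc5 and Gpc6 go from 2.16% and 1.83% in control to 4.19% and 4.65% in *Neuid* KD. The share of Gpc3 goes from 9.30% in control to 6.50% in *Neuid* KD.

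Chrdl1 (chrX:143285674-143394262, minus strand) fell further than any other member. It ran from 5.55 CPM to 9.01 CPM in control libraries (median 7.09 CPM) and from 2.93 CPM to 4.55 CPM in *Neuid* KD libraries (median 3.37 CPM). All 6 *Neuid* KD libraries were below the lowest control library. The mean fell from 7.16 ± 1.10 CPM to 3.48 ± 0.602 CPM (SD, n = 6 each), which is a log2 fold change of -1.06 (SE 0.132, edgeR adjusted p = 2.74e-05). The log2 fold change was -0.94 in the libraries with at least 100 CPM of background and -1.21 in the others. Of 16 BMP antagonists, ligands and receptors, 13 were tested, 2 were upregulated and 0 downregulated, with a median log2 fold change of 0.05. The upregulated genes were the receptor Bmpr1b (log2 fold change 0.75, edgeR adjusted p = 1.31e-04) and the ligand Bmp7 (log2 fold change 0.62, edgeR adjusted p = 0.00197).

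Megf10 was higher in all *Neuid* KD libraries. It ran from 13.4 CPM to 18.7 CPM in control libraries (median 17.1 CPM) and from 22.6 CPM to 28.8 CPM in *Neuid* KD libraries (median 26.9 CPM). Its mean rose from 16.7 ± 1.84 CPM to 26.4 ± 2.44 CPM (SD, n = 6 each), a log2 fold change of 0.66 (SE 0.0778, edgeR adjusted p = 1.39e-05), and it was 0.60 and 0.64 within the libraries of higher and lower background. With the GC and length offsets its edgeR adjusted p was 0.0555. Of 20 phagocytic receptors and adaptors, 17 were tested, of which 6 were upregulated and 0 downregulated, with a median log2 fold change of 0.05. Mfge8, a secreted bridge to phosphatidylserine on engulfed material, rose from 113 ± 12.8 CPM to 480.4 ± 24.0 CPM (SD, n = 6 each), a log2 fold change of 2.09. Gulp1, an adaptor that binds engulfment receptors, had a log2 fold change of 1.78, the receptor tyrosine kinase Mertk 1.76 and the lipid transporter Abca1 1.33. Gulp1 and Mertk were low, with means of 0.904 and 2.70 CPM in control and of 3.11 and 9.11 CPM in *Neuid* KD. The microglial and macrophage markers, of which 6 of 10 were tested, summed to 16.1 to 24.6 CPM in control and to 14.3 to 24.5 CPM in *Neuid* KD, and the defining markers Cx3cr1, P2ry12, Tmem119, Itgam and Fcrls averaged under 1 CPM.

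Among 20 other astrocyte-secreted factors that act on synapses, 18 were tested, of which 6 were upregulated and 0 downregulated, with a median log2 fold change of 0.30. Bcan and Ncan, proteoglycans of the perineuronal matrix, had log2 fold changes of 1.87 and 1.01, the growth factor Ptn 1.27 and the protease inhibitor Cst3 1.23. Bcan rose from 55.04 ± 3.14 CPM to 202 ± 17.9 CPM (SD, n = 6 each). The 10 oligodendrocyte precursor markers summed to 531 to 704 CPM over the control libraries, against 1307 to 1554 CPM after the knockdown. Most of this sum was Ptprz1, whose mean went from 428 to 1096 CPM. Ptprz1, Olig1 and Olig2 were the 3 upregulated markers (log2 fold changes of 1.36, 1.47 and 1.67). The other 7 did not pass the test, among them Pdgfra, Sox10 and Tnr (edgeR adjusted p = 0.223, 0.954 and 0.474). Gpr17, C1ql1, Nkx2-2 and Neu4 averaged under 1 CPM. What part these markers had in the result was not tested. Over the 6 lists together, 86 of 96 genes were tested, of which 17 were upregulated and 0 downregulated, with a median log2 fold change of 0.10. The phagocytic list and the list of other secreted factors gave 6 upregulated genes each. Beside these counts and those of the marker lists, 2.44% of all tested genes were upregulated and 0.792% downregulated.

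**Figure D4:**
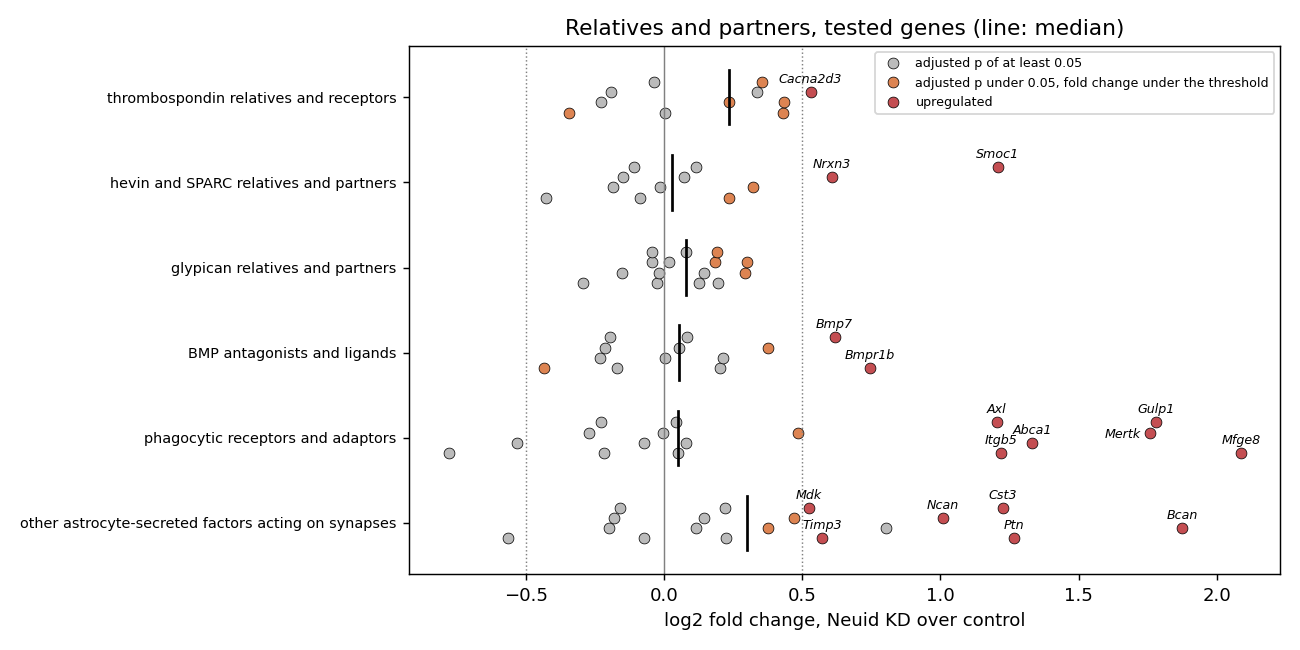
Log2 fold change, *Neuid* KD over control, of the tested genes of 6 lists of relatives and partners of the members, with a point for each gene, a vertical line for the median of each list and dotted lines at the fold threshold. Points beyond the upper threshold are most frequent among phagocytic genes and other secreted factors, with 6 upregulated genes each, and the medians lie between 0.03 and 0.30.

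Scaled to exon length, the members spanned a wide range. In control, Sparcl1 was at 231 CPM per kb, Sparc at 20.2, Gpc4 at 10.0 and Megf10 at 2.17 CPM per kb, each without overlap with the next. Chrdl1 (1.06 CPM per kb), Thbs1 (0.916), Gpc5 (0.755), Thbs2 (0.720) and Gpc6 (0.643) followed, and neighbours in this stretch overlapped between libraries. Thbs4 was lowest, at 0.295 CPM per kb. In *Neuid* KD the first 4 kept their order, at 301, 14.9, 11.6 and 3.42 CPM per kb. Gpc6 (1.91 CPM per kb) and Gpc5 (1.72) stood next and overlapped each other, above Thbs1 (1.03), while Chrdl1 (0.515) and Thbs2 (0.481) overlapped each other above Thbs4 (0.191). Gpc6 thus stood at position 9 in control and 5 in *Neuid* KD, and Chrdl1 at 5 and 8. With the longest transcript as the length, Gpc6 stood at position 7 in control, ahead of Thbs1 at 8 and Thbs2 at 9.

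**Figure D5:**
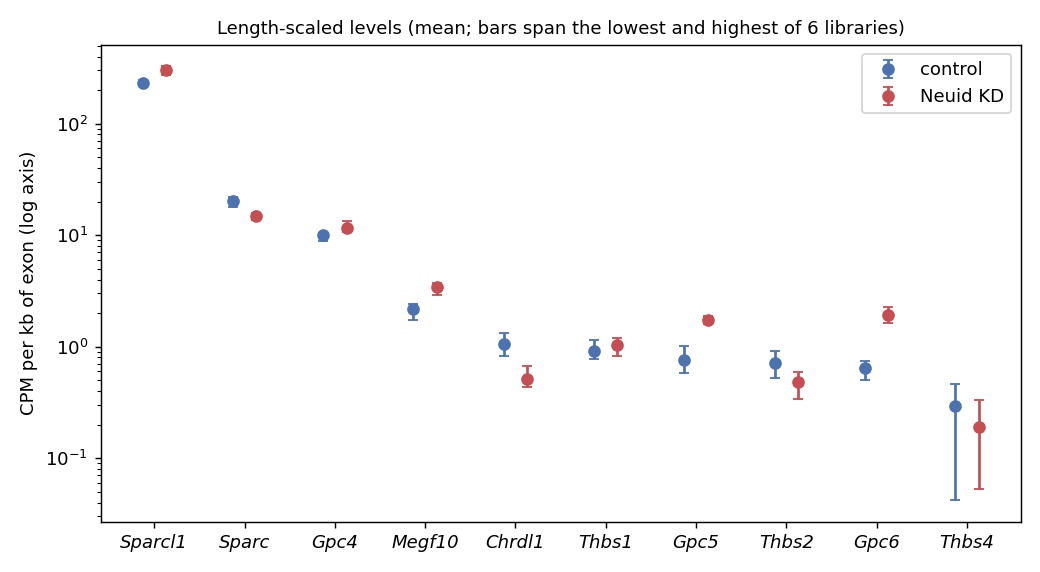
Length-scaled level of the 10 members (CPM per kb of exon, log axis), ordered by the control level, with the mean of 6 libraries per group and bars from the lowest to the highest library. Sparcl1 lies above all others in both groups, at means of 231 and 301 CPM per kb, and Gpc6 and Gpc5 lie above Chrdl1 and Thbs1 in *Neuid* KD alone.

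Set against the summed CPM of the 20 homeostatic astrocyte markers, which was 1.86-fold higher in *Neuid* KD, most of the members were lower in *Neuid* KD, as were most tested genes. As a share of that sum, 7 members were lower in *Neuid* KD without overlap, beside 59.6% of all tested genes on the same scale, so their count lay near the background. A single member was higher without overlap, beside 0.393% of all tested genes, and 2 overlapped. Over all tested genes the median ratio of *Neuid* KD to control on this scale was 0.528. Sparcl1 was at 32.2% of the sum in control and at 22.6% in *Neuid* KD, Sparc at 3.62% and 1.43%, Chrdl1 at 0.339% and 0.0897%, and Megf10 at 0.789% and 0.670%. Gpc6 was the member that was higher on this scale, at 0.196% in control and 0.312% in *Neuid* KD, and Gpc5 and Thbs4 were those that overlapped. The log2 fold change of Gpc6, 1.57, lay within the range of the astrocyte markers. Reactive astrocyte markers summed to 759 to 848 CPM in control and to 615 to 637 CPM in *Neuid* KD. Most of this sum was Vim, whose mean went from 555 CPM in control to 332 CPM in *Neuid* KD. Gfap went the other way, from 140 to 210 CPM. Among the 11 tested, 2 were upregulated (Gfap and Osmr) and 3 downregulated (Vim, Cp and S1pr3).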

How the data were processed

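Total RNA of 12 samples was made into libraries with a stranded SMARTer Pico kit, and the authors aligned single reads to mm10 with STAR after bcl2fastq and deposited raw counts per gene, made with featureCounts and not normalized. The strand setting of the counting and the annotation release were not given in the sources used here, so reads of genes that overlap on opposite strands cannot be told apart. Antisense genes overlapping Sparcl1, Thbs1, Gpc5 and Gpc6 held at most 224 reads each over all libraries, and Gm42517, which overlaps *Neuid*, held 5032. Symbols and positions were taken from GENCODE on GRCm38 for 55230 of 55471 genes.

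Counts were scaled with TMM, filtered with filterByExpr and passed to the quasi-likelihood F-test in edgeR 4.0.16 (R 4.3.3), with group as the only term, and p-values were adjusted over 19578 genes. Libraries, which are the rows of the count table, were assigned to groups by their names and the sample titles. No pair of libraries of a group agreed within sampling noise (smallest chi-square per gene 3.38). In simulated data with the same library sizes and 18253 genes in the test, 50 genes that averaged at least 1 CPM were changed by each fold. At an adjusted p under 0.05, without the fold threshold, 80% of those raised 2-fold and 66% of those raised 1.5-fold were recovered. The simulation held no difference in background between libraries. Intervals are approximate (normal) 95% intervals. Levels between genes were divided by the summed length of the exons.

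The members, the gene lists and the rule were chosen with earlier results of these data known. Named were all 10 members, from each of 6 lists at most the 4 called genes with the largest change in each direction (or, where none was called, those with the smallest adjusted p), and the 5 genes most like the member of highest level. Alternatives were other normalizations, limma 3.58.1, DESeq2 1.42.0, RUVs factors, the background as a covariate or as a split, other filters, GC and length offsets, thinned counts, a replicate block and leaving out each library.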

Additional observations from a re-analysis of the deposited data

Results flagged for a closer look

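Gpc4 in control replicate 4 was at 23.7 CPM, while the other control libraries lay between 26.5 and 27.6 CPM. The gap to the nearest of them was 0.715 of the whole range of the group, above the 95% critical value of Dixon's test for 6 samples. It was 1 of 20 groups of libraries checked, and chance flags about 1 in 20.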

How the results depend on the processing

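The log2 fold changes of Chrdl1, Gpc5 and Gpc6 kept their direction and stayed past the threshold in all 26 alternatives. The number of upregulated members was 2 with GC and length offsets, 4 with a log2 fold threshold of 0.3 and 5 with no fold threshold. The number of downregulated members was 1 in the libraries with at least 100 CPM of background, in those under 100 CPM, with no filter on low counts, with GC and length offsets and with thinned counts, and 1 to 2 when a library was left out. It was 3 with upper-quartile scaling, with no fold threshold and with a log2 fold threshold of 0.3, each time with Sparc added. Downregulated genes of the pathway lists numbered 1, against 0, with DESeq2, with 1 RUVs factor, with the background covariate and in either background set, and 0 to 1 when a library was left out. Log2 fold changes whose adjusted p no longer passed were those of Sparcl1, at 0.39 with no filter and 0.44 with GC and length offsets, and with these offsets of Sparc at -0.37 and Megf10 at 0.68, the last with a fold as large as before (0.66). Thbs2 was at -0.45 and -0.67 in the higher and lower background sets, -0.58 with no filter, -0.57 with offsets and -0.55 thinned, and ran from -0.69 to -0.52 when a library was left out. Gpc4 was at 0.14 with upper-quartile scaling, 0.19 with DESeq2-type size factors, 0.25 and 0.13 in the background sets, 0.21 with no filter and 0.28 with offsets, and ran from 0.13 to 0.22 when a library was left out. Thbs4 was at 0.031, reversed, in the lower background set, and had no value when thinned or with a filter of 1 CPM. The cause of these changes was not tested, though the background sets hold fewer libraries. Over all genes, 477 were upregulated and 155 downregulated, against 480 and 260 with DESeq2, 572 and 283 with 1 RUVs factor, 570 and 260 with 2, 562 and 300 with the background covariate, 387 and 95 with offsets, 389 and 218 with upper-quartile scaling and 426 and 269 without *Neuid* KD replicate 1. With a replicate block, 3 members were upregulated and 2 downregulated, and 474 and 167 of all genes. Same-numbered libraries correlated in their deviations at -0.637 to 0.774, over 0.1 in 2 of 6 pairs, and 3 of 12 libraries were closest to their own number, so the numbers were not taken to pair the samples.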

Other observations

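Among 15204 tested genes that averaged 1 CPM or more, the 5 whose log2 CPM was most like that of Sparcl1 over the 12 libraries were Tor1aip1 (Pearson r = 0.987), Fermt2 (0.976), Sec14l2 (0.975), Sept9 (0.974) and Slc25a5 (0.974). These points share the libraries and the gapmer difference, and with the group means removed r was 0.916, 0.795, 0.793, 0.822 and 0.785. Endothelial markers, of which 6 of 10 were tested and none passed, summed to 6.99 to 27.9 CPM in control and to 7.07 to 25.3 CPM in *Neuid* KD, with Cdh5, Cldn5, Tek, Tie1, Esam, Ly6c1 and Emcn averaging under 1 CPM.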
